A study of Mus musculus with 42 samples.

Results

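The 10 genes described here carry the MHC class II route of antigen presentation: the classical chains H2-Aa, H2-Ab1 and H2-Eb1, the invariant chain Cd74, the transactivator Ciita, the peptide editor chains H2-DMa and H2-DMb1, the chains H2-Oa and H2-Ob of its inhibitor, and the protease Ctss. They were taken by name, as the array features whose only gene symbol is 1 of these 10. All 10 were found, on 13 of the 30601 features of the array, and H2-Ab1 (3 features) and Cd74 (2 features) were averaged per array. Of 15277 genes formed in this way, 12588 had a value on every array. H2-DMb1 lacked a value on CpG ODN 72 h replicate 1, H2-Oa on CpG ODN 3 h replicate 3 and H2-Ob on CpG ODN 5 days replicate 4.

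Class II molecules are assembled from an alpha and a beta chain in the endoplasmic reticulum, where Cd74 fills their groove and leads them to endosomes. Cathepsin S, the product of Ctss, trims Cd74 down to a short fragment, and the editor DM, a dimer of H2-DMa and H2-DMb1, exchanges that fragment for antigenic peptide. DO, a dimer of H2-Oa and H2-Ob, binds DM and inhibits it, and is known mainly from B cells and some dendritic cells. Ciita, made in B cells, dendritic cells and, after interferon-gamma, macrophages, switches on the chains, Cd74 and DM by joining a protein complex on the X and Y boxes of their promoters.

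Spleens of female BALB/c mice, called wild type in most labels, were profiled on 42 two-colour arrays, with Cy5-labelled spleen cDNA against a Cy3-labelled universal mouse reference made from several tissues and cell types. Mice were untreated (6 arrays), or had 1 intraperitoneal dose of 400 µg of an equimolar oligodeoxynucleotide mixture: ODN 1612 and 1471 as control ODN, taken at 3 h (4 arrays), or ODN 1555 and 1466 as CpG ODN, taken at 3, 9, 24 and 72 h and at 5, 7, 9 and 14 days (4 arrays each). CpG ODN engage TLR9, an endosomal receptor of B cells and dendritic cells. The labels used here state no ages, and the control mixture was taken at 3 h only. The series calls the arrays of a group independent biological replicates. Values are log2 ratios of spleen over reference, with base and direction inferred from the values and dyes, so a gene's level says nothing about its abundance relative to another gene. In a whole spleen, fewer cells of a type and less RNA per cell cannot be told apart. Each array lacked values for 173 to 1740 features. In addition, 5 of the 6 untreated arrays lie together, without a treated array, in the database numbering of the titles, so numbering and treatment cannot be told apart in most comparisons. The B cell genes Cd79a (5.64 ± 0.55, SD, n = 6) and Cd79b (3.71 ± 0.12) were well above the reference in untreated spleens.

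The promoters of the members were searched for letters of the class II boxes. RefSeq promoters (GRCm38.p6, 250 bases before to 50 after a gene's start) matched 7 of the 10 members, H2-DMa with 2 windows. H2-Ab1, Ciita and Cd74 had no entry. Each line gives 60 bases from 5′ to 3′ on the gene's strand. Capitals mark, in the first 4 lines, an X box match CNAGNAAC followed by the Y box match TGATTGG. In H2-Aa they mark the X2-like element TGACGTCA and TGATTGG, and in Ctss the interferon regulatory factor type element GAAANNGAA.
H2-Oa (chr17:34092290-34092349, plus strand): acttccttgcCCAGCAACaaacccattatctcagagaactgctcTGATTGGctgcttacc
H2-DMb1 (chr17:34153084-34153143, plus strand): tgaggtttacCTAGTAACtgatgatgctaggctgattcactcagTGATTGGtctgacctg
H2-Ob (chr17:34238802-34238861, plus strand): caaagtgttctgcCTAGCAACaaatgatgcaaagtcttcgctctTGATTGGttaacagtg
H2-Eb1 (chr17:34305762-34305821, plus strand): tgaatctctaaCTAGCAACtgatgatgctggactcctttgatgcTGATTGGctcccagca
H2-Aa (chr17:34287858-34287917, minus strand): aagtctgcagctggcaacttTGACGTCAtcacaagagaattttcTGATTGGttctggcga
Ctss (chr3:95526726-95526785, plus strand): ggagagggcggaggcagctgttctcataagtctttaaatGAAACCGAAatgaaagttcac

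The X box match began 34 bases before the Y box match in H2-Oa and H2-DMb1, 31 in H2-Ob and 33 in H2-Eb1. Searched on both strands of 32851 promoters of the same length, CNAGNAAC was in 13.8%, TGATTGG in 7.82%, TGACGTCA in 1.79% and GAAANNGAA in 8.56%. An X match starting 25 to 45 bases before a Y match was in 26 promoters (0.079%), among them those of H2-Oa, H2-DMb1, H2-Ob, H2-Eb1 and the related chain H2-Eb2. These 4 motifs were chosen after the promoters had been seen, and they do not overlap each other in the lines above. A match is a description of letters, and none of the 4 was found in the H2-DMa windows. Strict letters can miss a variant box, so the lack of an X box match in H2-Aa or H2-DMa does not show that the box is absent. On chromosome 17 the members follow each other in the order H2-Oa, H2-DMa, H2-DMb1, H2-Ob, H2-Ab1, H2-Aa and H2-Eb1.

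After CpG ODN, H2-Ob fell at 9 h, 72 h and 5, 7 and 9 days against untreated and was uncalled at 3 h, 24 h and 14 days. H2-DMa was called higher at 5 days, with a similar but uncalled difference at 72 h. The classical chains, Cd74, Ciita, H2-DMb1, H2-Oa and Ctss passed the test at no CpG time against untreated. Tests were made with limma over all genes, and a gene was called at a Benjamini-Hochberg adjusted p below 0.05. Against untreated, the number of members called was 0 of 10 at 3 h, 1 at 9 h, 0 at 24 h, 1 at 72 h, 2 at 5 days, 1 at 7 days, 1 at 9 days and 0 at 14 days. Among all genes tested, 11.6% were called at 3 h, 8.54% at 9 h, 10.9% at 24 h, 15.0% at 72 h, 30.9% at 5 days, 15.6% at 7 days, 13.5% at 9 days and 4.59% at 14 days. The members' counts were therefore close to or under these shares. Without adjustment, 0 members at 3 h, 3 at 24 h and 1 at 14 days had p under 0.05. The median difference of the 10 members lay between -0.29 (9 h) and 0.22 (72 h and 14 days), beside medians of all genes between -0.02 and 0.02. Over the 8 CpG times together, limma's F test called 4 members (H2-Ob, Ctss, H2-DMa and Cd74) at a background of 63.6%.

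**Figure D1:**
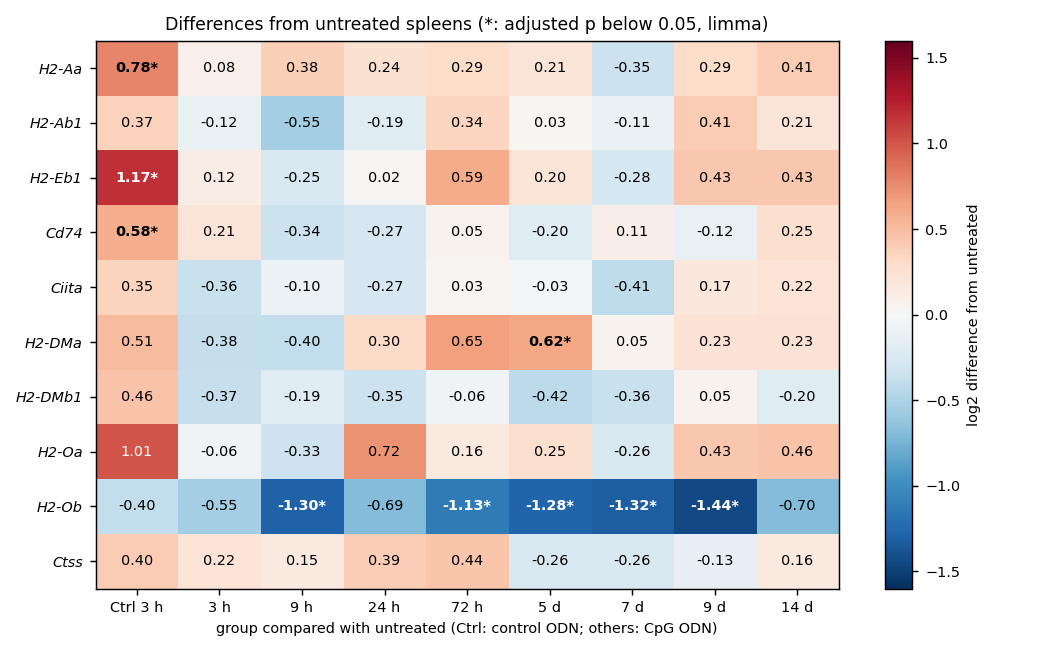
Log2 difference from untreated spleens for each of the 10 genes (rows) in the control ODN group and the 8 CpG ODN groups (columns), coloured from blue (lower) to red (higher), with an asterisk where limma's adjusted p is below 0.05. H2-Ob is blue in every column and carries 5 asterisks, and the control ODN column carries 3.

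H2-Ob encodes the beta chain of DO. Its log2 ratios in the untreated spleens were 2.54, 3.79, 3.28, 3.48, 2.95 and 3.57. They were 2.76, 1.20, 2.18 and 1.73 at 9 h, 2.39, 2.08, 1.55 and 2.51 at 72 h, and 1.92, 2.31 and 1.73 at 5 days. They were 2.49, 1.35, 2.29 and 1.66 at 7 days and 1.74, 1.78, 1.35 and 2.43 at 9 days. At 72 h and at 5, 7 and 9 days every array was below all 6 untreated arrays. Such separation from untreated, in either direction, was common at these times, from 11.6% of all genes at 72 h to 22.6% at 5 days. At 9 h replicate 1 lay above the lowest untreated array.

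Relative to untreated, H2-Ob fell by 1.30 ± 0.28 at 9 h (SE of the limma fit, adjusted p = 0.00165), by 1.13 ± 0.28 at 72 h (adjusted p = 0.00669) and by 1.28 ± 0.31 at 5 days (adjusted p = 0.00181). It fell by 1.32 ± 0.28 at 7 days (adjusted p = 0.00122) and by 1.44 ± 0.28 at 9 days (adjusted p = 0.000688). At 9 days it stood at 0.368 of the untreated ratio, and its difference was the 15th lowest of the 15142 genes tested. The 5 comparisons share the untreated arrays. The arrays of these times lie apart from all untreated arrays in the database numbering. At 72 h and at 5, 7 and 9 days numbering and treatment therefore cannot be told apart. At 9 h they could be fitted apart, because CpG ODN 3 h arrays lie both beside an untreated array and beside the 9 h arrays. H2-Ob was not in that fit, so the part of the numbering in its fall at 9 h was not tested. The call at 72 h rests in part on CpG ODN 72 h replicate 3, without which the adjusted p was 0.0506.

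At the other CpG times the H2-Ob difference was uncalled. The arrays had 2.41, 2.66, 2.67 and 3.13 at 3 h, 2.42, 3.08, 2.12 and 2.71 at 24 h, and 2.84, 2.08, 2.56 and 2.81 at 14 days. All 3 sets overlapped the untreated arrays. The differences were -0.55 at 3 h (95% interval -1.13 to 0.02), -0.69 at 24 h (-1.26 to -0.11) and -0.70 at 14 days (-1.27 to -0.12). The control ODN spleens had H2-Ob at 2.68, 3.31, 2.10 and 3.40, a difference of -0.40 (-0.97 to 0.18). From the highest group mean to the lowest, the order was untreated 3.27, control ODN 2.87, CpG ODN 3 h 2.72, 24 h 2.58, 14 days 2.57, 72 h 2.13, 5 days 1.99, 9 h 1.97, 7 days 1.95 and 9 days 1.83. No H2-Ob comparison between successive CpG times was called, the largest being -0.75 ± 0.31 from 3 h to 9 h (limma, adjusted p = 0.326). The 72 h, 7 day and 14 day arrays follow each other in the database numbering. Against 14 days, the H2-Ob difference was -0.62 at 7 days (-1.25 to 0.01, limma adjusted p = 0.153). It was -0.44 at 72 h (-1.07 to 0.19, limma adjusted p = 0.303), and both were uncalled.

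H2-Oa, the alpha chain of DO, was called at no time. Its untreated values were 3.12, 3.06, 2.43, 2.58, 2.57 and 2.85, and the 24 h values of 3.96, 3.50, 3.28 and 3.20 lay above all of them. Of all genes, 7.99% did not overlap between these groups. The H2-Oa difference at 24 h was 0.72 (0.04 to 1.40, limma adjusted p = 0.168), and it was called within a fit of the untreated and 24 h arrays alone (adjusted p = 0.0321). At 9 days H2-Oa spread from 2.15 to 4.31, a difference from untreated of 0.43 (-0.24 to 1.11). The within-array difference H2-Ob minus H2-Oa was 0.50 ± 0.56 (SD, n = 6) in untreated spleens, -1.04 ± 0.24 (n = 3) at 5 days and -1.37 ± 0.45 (n = 4) at 9 days, and this difference was not tested. Across arrays the 2 DO chains had a Pearson r of 0.07 over 40 arrays, which share the 10 groups. In comparison, H2-Eb1 and H2-Ab1 had an r of 0.75 over 42 arrays.

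Markers of B and T cells were lower at some of the times when H2-Ob was, to different degrees. At 9 days the share of B cell markers that fell was close to that of all genes. The mean log2 ratio of 19 B cell markers was 2.84 ± 0.16 in untreated spleens, 2.48 ± 0.21 at 72 h, 2.19 ± 0.14 at 5 days, 2.27 ± 0.15 at 7 days, 2.71 ± 0.18 at 9 days and 3.07 ± 0.23 at 14 days. Of the 19, 4 fell at 72 h, 10 at 5 days, 7 at 7 days, 1 at 9 days and 0 at 14 days, where 6.02%, 13.4%, 6.89%, 5.12% and 1.79% of all genes fell. At 9 h, when H2-Ob fell by 1.30, the marker mean was 2.62 ± 0.12 and 2 of 19 fell, beside 3.45% of all genes. The receptor subunit Cd79b fell at the 5 times at which H2-Ob fell, with differences of -0.65 at 9 h, -1.46 at 5 days and -1.13 at 9 days (limma adjusted p 0.00253, 6.15e-09 and 1.54e-06). It also fell at 3 h, by 0.90 ± 0.15 (limma, adjusted p = 1.78e-05), when H2-Ob was uncalled. Of 15 dendritic cell markers, 3 rose and 4 fell at 5 days, and 1 rose and 1 fell at 9 days. Of 13 T cell markers, 5 fell at 9 h, 6 at 72 h, 9 at 5 days (with 1 higher), 6 at 7 days and 4 at 9 days, beside 1 at 3 h, 1 at 24 h and 0 at 14 days. Of all genes, 3.93% fell at 3 h and 2.87% at 24 h, with the shares at the other times given above. The T cell marker mean was 1.64 ± 0.18 untreated, 1.12 ± 0.18 at 9 h, 0.88 ± 0.14 at 5 days and 1.37 ± 0.12 at 9 days. Of 11 neutrophil markers, 3 rose at 9 h, 6 at 72 h, 7 at 5 days, 8 at 7 days and 10 at 9 days, and also 11 at 14 days, with 1 lower at each of 72 h, 5 days and 7 days. The shares of all genes that rose were 5.09% at 9 h, 8.94% at 72 h and 17.5% at 5 days. They were 8.69% at 7 days, 8.4% at 9 days and 2.79% at 14 days. Over 41 arrays, which share groups and reference, H2-Ob had an r of 0.57 with the T cell marker mean, 0.39 with the B cell marker mean and -0.52 with the neutrophil marker mean. The part of these cell markers in the H2-Ob values was not tested.

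**Figure D2:**
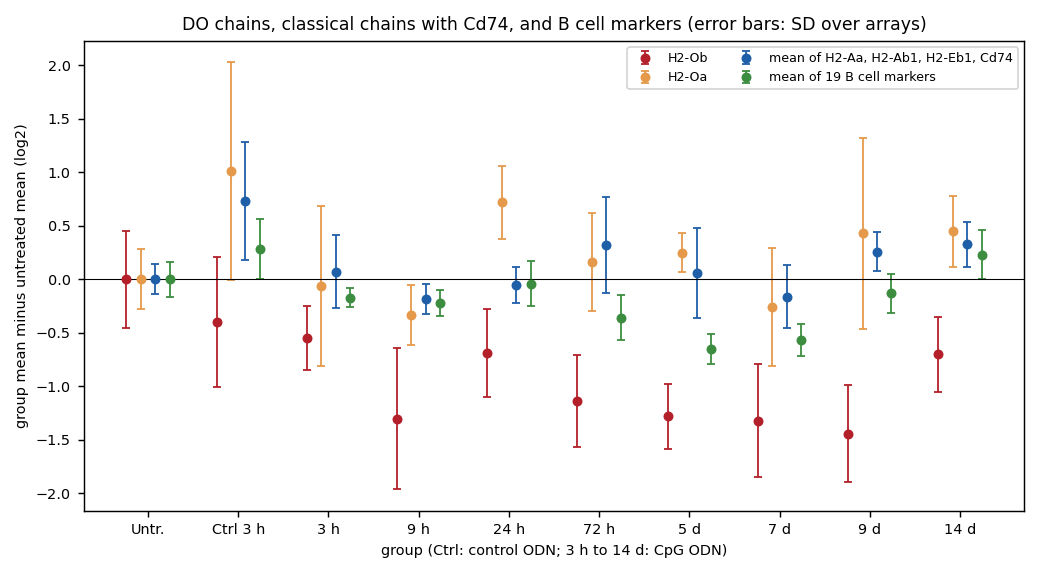
Group mean minus the untreated mean (log2, vertical axis) of H2-Ob, H2-Oa, the mean of H2-Aa, H2-Ab1, H2-Eb1 and Cd74, and the mean of 19 B cell markers in the 10 groups (horizontal axis), with bars of 1 SD over arrays. H2-Ob lies at -1.44 at 9 days, where the other 3 series lie close to or above 0.

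The classical chains present the peptide. H2-Aa was tight in untreated spleens, at 6.77, 6.76, 6.75, 6.86, 6.97 and 6.60, and wider after CpG ODN, from 6.37 to 7.74 at 5 days. Its differences from untreated ran from -0.35 (7 days, -0.81 to 0.10) to 0.41 (14 days, -0.05 to 0.87). H2-Aa was called lower at 7 days with arrays scaled to 1 SD (-0.70), and higher at 72 h with array weights (0.56). Between 2 CpG times it was called once: the 7 day arrays, at 6.43, 6.83, 6.50 and 5.97, lay below the 14 day arrays, at 6.87, 7.62, 6.92 and 7.38. That difference was -0.77 ± 0.25 (limma, adjusted p = 0.0238). H2-Eb1, Ciita and Ctss were also lower on every 7 day array than on any 14 day array, and were uncalled. In the same comparison 21.5% of genes were called, and the arrays of 26.4% did not overlap. In it 13 of 19 B cell markers and 8 of 13 T cell markers were lower at 7 days, each list with a median difference of -0.72, and their part in the H2-Aa value was not tested. The 7 and 14 day arrays follow each other in the database numbering, and this pair of times was chosen for that reason.

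H2-Eb1, the E beta chain, had 5.67, 5.33, 5.11, 4.94, 4.95 and 4.95 in untreated spleens. At 72 h it had 6.17, 6.30, 5.88 and 4.65, with 3 arrays above all untreated arrays and replicate 4 below them, and a difference of 0.59 (0.01 to 1.17, limma adjusted p = 0.162). Without that replicate the difference was 0.96 and was called. H2-Ab1, the A beta chain, was lowest at 9 h, where its arrays read 4.03, 4.45, 3.56 and 3.96 against an untreated range of 4.26 to 4.85. The difference of -0.55 (-1.07 to -0.03) was uncalled (limma adjusted p = 0.221), but was -0.79 and called with every array scaled to 1 SD (adjusted p = 0.00706). Its 3 features differed from untreated by -0.68, -0.34 and -0.62 at 9 h, but by 0.02, -0.39 and 0.47 at 5 days.

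Cd74 was followed by 2 features. Its CpG ODN means ran from 4.06 ± 0.14 at 9 h to 4.66 ± 0.17 at 14 days, beside 4.41 ± 0.24 untreated. The F test called it (adjusted p = 0.0164). All 4 arrays at 9 h (3.89 to 4.21) lay below all 4 at 3 h (4.46 to 4.86). Between these times the arrays of 7.42% of all genes did not overlap, and 1.44% were called. The Cd74 difference of -0.55 (-0.89 to -0.21) was uncalled (limma adjusted p = 0.103). At 9 h the difference from untreated was -0.34 (-0.65 to -0.03, limma adjusted p = 0.197), and with arrays scaled to 1 SD it was -0.58 and called. That scaling also called Cd74 lower at 24 h (-0.50), 5 days (-0.50, from -0.20) and 9 days (-0.51, from -0.12), and quantile normalization did so at 9 h (-0.61), 24 h (-0.48) and 9 days (-0.50). The features disagreed at 5 days, where the first fell by 0.63 (adjusted p = 0.0167) and the second had a difference of 0.22 (adjusted p = 0.406).

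Ciita, the regulator shared by most of these genes, showed the widest spread among untreated arrays of any member (SD 0.50), with values of 2.60, 2.52, 1.79, 1.39, 1.52 and 1.96. The CpG means ran from 1.56 ± 0.19 at 7 days to 2.18 ± 0.22 at 14 days. The differences from untreated ran from -0.41 (-0.94 to 0.12) at 7 days to 0.22 (-0.31 to 0.75) at 14 days, and none was called. Ciita was not called in the F test either (adjusted p = 0.36).

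**Figure D3:**
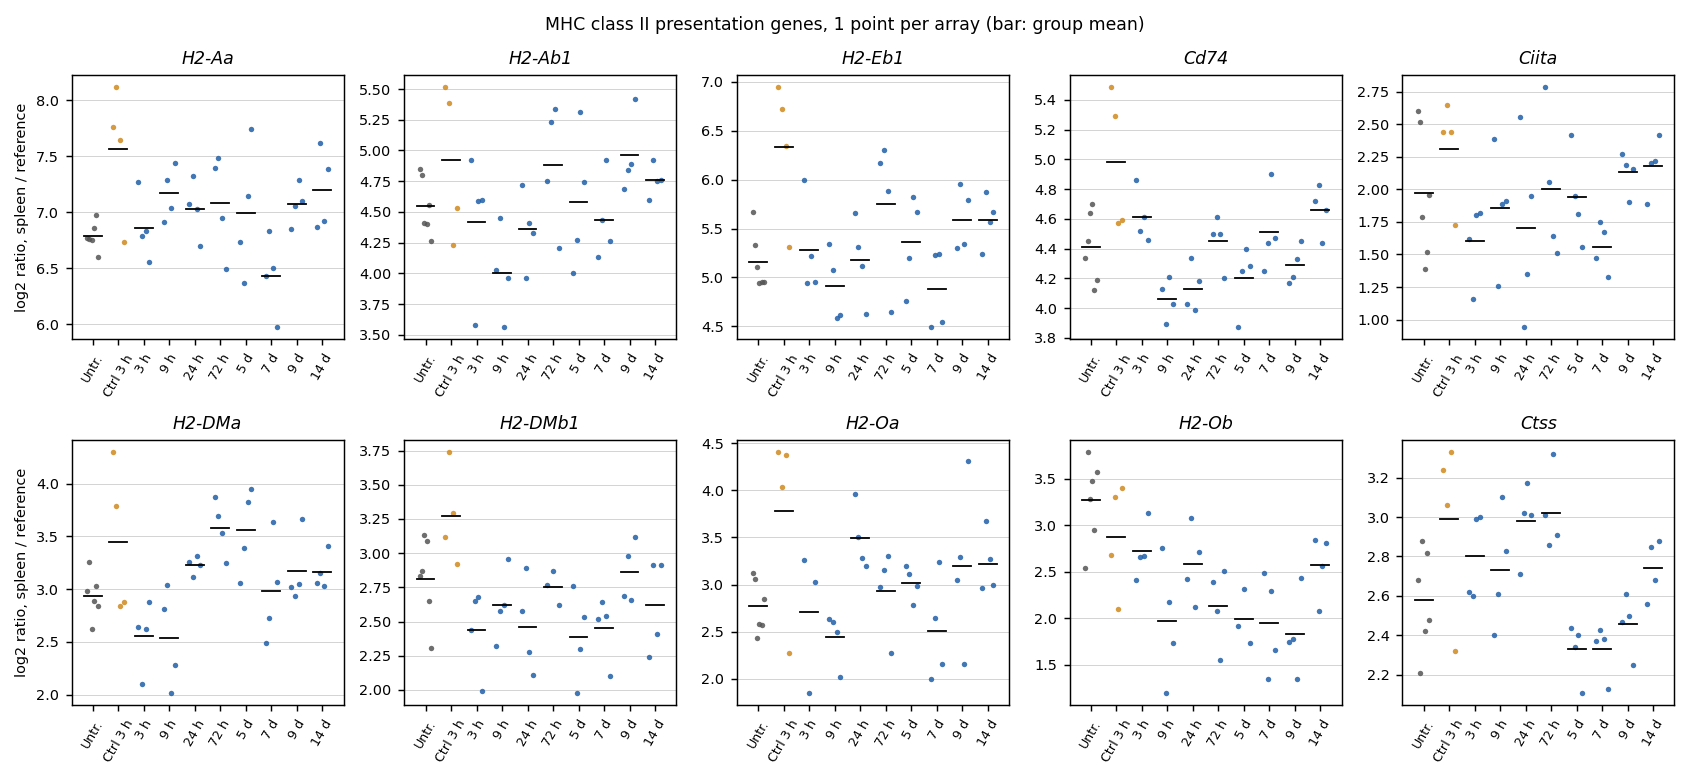
Log2 ratio of spleen over reference (vertical axes, which differ between panels) of each of the 10 genes on every array, by group (horizontal axes: untreated in grey, control ODN in orange, 8 CpG ODN times in blue), with the group mean as a bar. The H2-Ob bars lie between 1.83 and 2.72 after CpG ODN against 3.27 untreated, and the Ctss bars drop from 3.02 at 72 h to 2.33 at 5 days.

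The 2 chains of DM had an r of 0.11 over 41 arrays. H2-DMa rose at 5 days, to 3.06, 3.39, 3.83 and 3.95 from untreated values of 2.98, 3.26, 2.62, 2.89, 3.03 and 2.84, and replicate 1 lay among the untreated arrays. The rise was 0.62 ± 0.23 (limma, adjusted p = 0.0408), and it was 0.31 and uncalled without the arrays that lacked over 1000 features (CpG ODN 5 days replicates 3 and 4 and untreated replicate 5). The call was lost in 10 of 19 alternatives. At 72 h H2-DMa had 3.87, 3.69, 3.53 and 3.25, a difference of 0.65 (0.17 to 1.12) with an adjusted p of 0.0552. Before adjustment the limma p was 0.00881 at 72 h and 0.0118 at 5 days. The call at 5 days alone thus came from the adjustment, which differs by comparison. A fit of the 2 groups alone (0.65) and array weights (0.80) called it at 72 h. Quantile normalization called H2-DMa lower at 3 h (-0.66) and 9 h (-0.59). H2-DMb1 was uncalled at every CpG time, with differences from -0.42 (5 days, -0.80 to -0.04) to 0.05 (9 days, -0.33 to 0.43). At 5 days 4 alternatives called it lower, at -0.58 with quantile normalization, -0.58 with array weights, -0.59 with a replicate block and -0.60 with arrays scaled to 1 SD. Quantile normalization also called it lower at 3 h (-0.64), 24 h (-0.55) and 7 days (-0.51). The within-array difference H2-DMa minus H2-DMb1 was 0.12 ± 0.40 in untreated spleens and 1.16 ± 0.58 at 5 days, and was not tested.

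Ctss, which trims Cd74, had a step between 72 h and 5 days. The 72 h arrays had 3.01, 2.86, 3.32 and 2.91 and the 5 day arrays 2.44, 2.34, 2.40 and 2.11, with no overlap. Of all genes, 10.2% did not overlap between these times. Ctss fell by 0.70 ± 0.17 between them (limma, adjusted p = 0.0191, 3.42% of genes called). The untreated arrays, from 2.21 to 2.88, overlapped both times, and against untreated the differences of 0.44 at 72 h (0.12 to 0.76, adjusted p = 0.0513) and -0.26 at 5 days (-0.58 to 0.06) were uncalled. Median centring (0.45), genes measured on all arrays (0.44) and array weights (0.32) called Ctss higher at 72 h. Quantile normalization and scaling to 1 SD (-0.43 each) called it lower at 5 days. No other member was called between these 2 times. Of 14 markers of monocytes and macrophages, cells in which Ctss is abundant, 2 fell from 72 h to 5 days, and the list's mean was 3.05 ± 0.21 and 2.60 ± 0.12. Of 9 plasma cell markers, 3 fell in the same comparison, and their mean was 0.16 ± 0.12 and -0.38 ± 0.15. Over 42 arrays Ctss had an r of 0.77 with the plasma cell marker mean and 0.33 with the monocyte and macrophage marker mean. Their part in the Ctss step was not tested.

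Between other successive CpG times no member was called. The shares of all genes called were 9.72% from 9 h to 24 h, 5.51% from 24 h to 72 h, 3.24% from 5 to 7 days, 4.93% from 7 to 9 days and 9.71% from 9 to 14 days. The nearest to a call, both from 9 h to 24 h, were H2-Oa (1.05 ± 0.37, limma adjusted p = 0.0624) and H2-DMa (0.69 ± 0.26, limma adjusted p = 0.0795), both higher on all 4 arrays at 24 h than on any at 9 h. The arrays of 9.71% of all genes did not overlap in that comparison. From 7 to 9 days the arrays of H2-Aa, H2-Eb1, H2-DMb1 and Ciita did not overlap, with differences of 0.64, 0.72, 0.41 and 0.58 and limma adjusted p from 0.117 to 0.237. The arrays of 16.6% of all genes did not overlap between these times. No member was called between 72 h and 14 days either, where 29.2% of genes were.

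The control ODN group was the one in which H2-Aa, H2-Eb1 and Cd74 stood highest by mean, and CpG ODN at 3 h stood below it. At 3 h after control ODN, H2-Aa rose by 0.78 ± 0.23 (limma, adjusted p = 0.0462), H2-Eb1 by 1.17 ± 0.29 (adjusted p = 0.0275) and Cd74 by 0.58 ± 0.15 (adjusted p = 0.0349). These were 3 of 10 members, beside 3.52% of all genes called. Neither of the 2 Cd74 features was called alone, at 0.62 and 0.54 (limma over features, adjusted p 0.066 and 0.088). The 3 features of H2-Ab1 differed by 0.65, -0.20 and 0.67, all uncalled. The median of the members was 0.49, beside 0.06 for all genes. H2-Ea, the E alpha chain and no member, rose by 1.20 ± 0.33 (adjusted p = 0.0359). H2-Oa differed by 1.01 (0.33 to 1.69, adjusted p = 0.074), H2-DMa by 0.51 (0.04 to 0.99), H2-DMb1 by 0.46 (0.08 to 0.84), Ctss by 0.40 (0.09 to 0.72), H2-Ab1 by 0.37 (-0.15 to 0.89) and Ciita by 0.35 (-0.18 to 0.88), all uncalled.

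These calls depended on single arrays and on the scale. The control ODN arrays also follow each other in the database numbering, apart from all untreated arrays, so numbering and control ODN cannot be told apart here. Control ODN replicates 1 to 4 had H2-Aa at 7.76, 8.12, 7.64 and 6.73, H2-Eb1 at 6.95, 6.72, 6.34 and 5.31, and H2-Oa at 4.41, 4.04, 4.38 and 2.27. Replicates 1 to 3 lay above all untreated arrays for these 3 genes and replicate 4 did not. Cd74 read 5.49, 5.29, 4.57 and 4.59. Without replicate 4, 7 members were called, and without replicate 1, 2 or 3, or without untreated replicate 5 or 6, none was. The SD over all features was 1.19, 1.15, 1.20 and 1.07 on the 4 control ODN arrays and 1.01 to 1.08 on the untreated arrays. With arrays scaled to 1 SD, the differences of H2-Aa, H2-Eb1 and Cd74 were 0.01, 0.56 and 0.08, and with quantile normalization 0.13, 0.57 and 0.03, none called. Quantile normalization left 184 genes called, 109 of them higher, in place of 369 higher and 162 lower. Across the 42 arrays, which share groups and reference, the mean of H2-Aa, H2-Ab1, H2-Eb1 and Cd74 had an r of 0.70 with array SD, and H2-Ob an r of -0.38 over 41 arrays. The B cell marker mean was 3.12 ± 0.28 after control ODN, against 2.84 ± 0.16 untreated, and Cd79a rose by 1.13 ± 0.31 (limma, adjusted p = 0.0367). The mean of the dendritic cell markers was 1.96 ± 0.33, against 1.64 ± 0.16. Of 14 monocyte and macrophage markers 4 rose, with a mean of 2.98 ± 0.29 against 2.47 ± 0.31, and of 11 neutrophil markers 2 rose, with a mean of 2.73 ± 0.59 against 1.98 ± 0.29. Their part in the result was not tested.

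CpG ODN at 3 h was below control ODN at 3 h for all 10 members by mean, except that with arrays scaled to 1 SD H2-Ob (0.00) and Ctss (0.01) were not lower, and 4 passed the test, with 20.8% of all genes called (1737 lower and 1394 higher). In this comparison the arrays of 20.0% of all genes did not overlap. H2-DMb1 had 2.44, 2.65, 2.68 and 1.99 after CpG ODN and 3.12, 3.74, 3.29 and 2.92 after control ODN, without overlap. It fell by 0.83 ± 0.21 (limma, adjusted p = 0.00348) and was called in each of 16 alternatives. H2-DMa fell by 0.89 ± 0.26 (adjusted p = 0.0117), H2-Eb1 by 1.05 ± 0.31 (adjusted p = 0.0149) and H2-Aa by 0.70 ± 0.25 (adjusted p = 0.0405), and for these 3 the arrays overlapped. H2-DMa lost the call in 3 of 17 alternatives, H2-Eb1 in 6 and H2-Aa in 11. With arrays scaled to 1 SD the H2-Aa difference was -0.23. H2-Ob differed least, by -0.16 (-0.79 to 0.47). Without control ODN replicate 4, 7 members were called. The same CpG arrays did not pass the test against untreated for any member, so the comparison also carries the control ODN values given above. The control ODN and CpG ODN 3 h arrays also lie apart in the database numbering, which cannot be told apart from the mixture given. In the same comparison 6 of 19 B cell markers fell and 1 rose, with a marker mean of 2.67 ± 0.09 after CpG ODN against 3.12 ± 0.28, and Cd79b fell by 1.13 ± 0.16 (limma, adjusted p = 1.69e-06). Of 15 dendritic cell markers 4 fell and 2 rose, and of 14 monocyte and macrophage markers 4 fell and 1 rose. The part of these markers in the result was not tested.

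**Figure D4:**
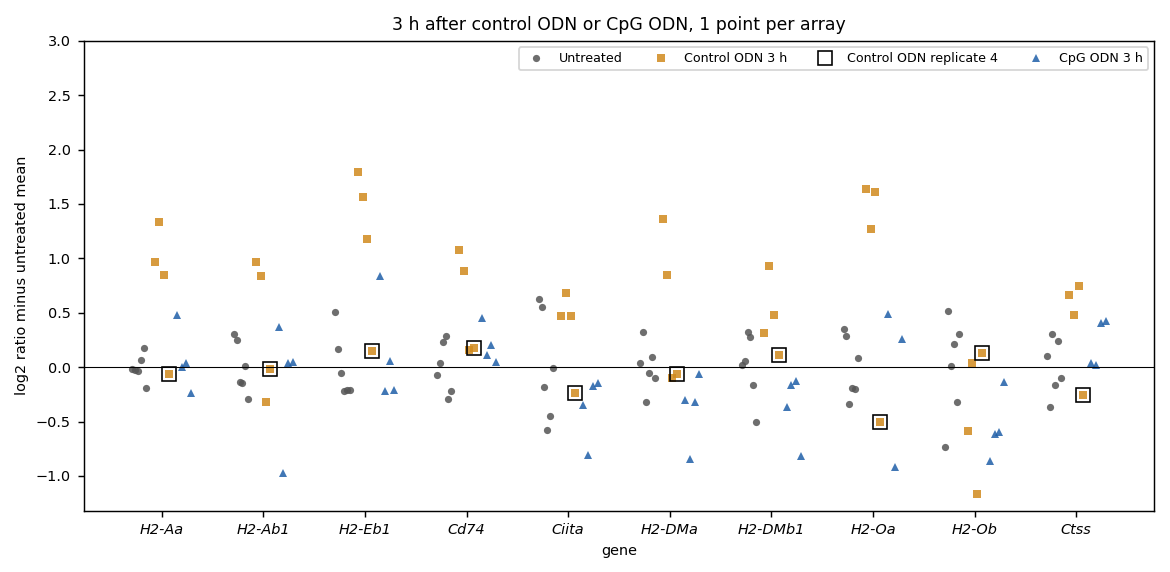
Log2 ratio of each array minus the untreated mean (vertical axis) for the 10 genes (horizontal axis) in untreated spleens (circles) and 3 h after control ODN (squares) or CpG ODN (triangles). Replicate 4 of control ODN, in a black frame, is the lowest control ODN array for H2-Aa, H2-Eb1, Ciita, H2-DMb1, H2-Oa and Ctss.

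Other genes of the pathway were called both at 3 h and 24 h, when no member was, and at times when H2-Ob was. Of all genes, 7.7% rose and 3.93% fell at 3 h, 5.09% rose and 3.45% fell at 9 h, and 17.5% rose and 13.4% fell at 5 days. In the list of 10 processing genes, 2 rose at 3 h and 4 at 9 h, with 1 lower at 9 h, and the list's median difference was -0.01 at 3 h and 0.10 at 9 h, beside -0.02 for all genes at both. Ctsl, the protease that cleaves Cd74 in thymic epithelium, rose by 1.29 ± 0.21 at 3 h and 1.35 ± 0.21 at 9 h (limma, adjusted p 1.35e-05 and 8.94e-06). Sppl2a, the membrane protease that clears the last Cd74 fragment, rose by 1.22 ± 0.18 at 3 h (adjusted p = 1.53e-06). Lgmn, an endosomal asparaginyl protease, rose by 1.27 ± 0.18 at 24 h (adjusted p = 1.91e-06).

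Of 9 genes of the interferon-gamma route to Ciita, 5 rose at 3 h and none fell, with a median difference of 0.43. Socs1, an inhibitor of that route, rose by 1.99 ± 0.18 (limma, adjusted p = 4.56e-11), Irf1, a factor that acts on Ciita, by 1.22 ± 0.29 (adjusted p = 0.00291) and the kinase Jak2 by 0.80 ± 0.16 (adjusted p = 0.000209). Ifng itself was uncalled at 3 h (0.05 ± 0.19) and rose by 0.65 ± 0.19 at 9 days (adjusted p = 0.0201). Of 5 genes listed as negative regulators of Ciita, 2 rose at 3 h, with a median of 0.09. Il10, a cytokine that lowers class II on myeloid cells, rose by 1.64 ± 0.20 at 3 h and by 1.83 ± 0.20 at 9 h (adjusted p 6.26e-08 and 8.2e-09).

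Among 9 genes for other chains and surface turnover, Cd83, which protects surface class II from removal, rose by 1.62 ± 0.36 at 3 h (limma, adjusted p = 0.00121), the 1 gene of the list called at that time, with a list median of 0.10. Its difference between CpG ODN and control ODN at 3 h was 0.55 (adjusted p = 0.353). Marchf8, a ubiquitin ligase of the family that removes class II from the surface, fell by 0.88 ± 0.29 at 24 h (adjusted p = 0.0406) and rose by 1.46 ± 0.29 at 5 days (adjusted p = 0.000197). Lag3, a class II receptor of activated T cells, rose by 1.06 ± 0.27 at 24 h and 1.36 ± 0.27 at 72 h (adjusted p 0.00696 and 0.000687). Of 12 transcription genes, 4 rose and 1 fell at 5 days, with a median of 0.04 beside 0.01 for all genes, and 4 rose and 1 fell at 7 days, when 8.69% of all genes rose and 6.89% fell. Nfyc, a subunit of the Y box factor, rose by 0.84 ± 0.19 at 5 days (adjusted p = 0.000647), and Rfx5, of the X box factor, had a difference of -0.41 ± 0.17 (adjusted p = 0.0624).

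By correlation over arrays, the genes nearest to the mean of H2-Aa, H2-Ab1, H2-Eb1 and Cd74, among 12588, were immunoglobulin kappa variable genes: Igkv8-27 (Pearson r 0.83 over 42 arrays), and Igkv16-104, Igkv4-70 and Igkv13-84 (0.81 each). Nearest to Ciita were Gimap7 (0.83), Msc (0.79) and Rgs14 (0.78). Nearest to the mean of H2-Oa and H2-Ob were Cyb561a3 (0.79), Smap2 (0.75), Cyb561d1, Cd79b and Ids (0.74 each) over 40 arrays. H2-Ob alone had no gene above 0.66 (Cd28 and Ids, 41 arrays). The arrays share groups, reference and array SD, and these values are a description.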

How the data were processed

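The authors deposited log2 ratios, spleen (Cy5) over reference (Cy3) by the dyes in the labels. How spots were filtered and arrays normalized is not given in the sources used here, nor is the log base. Values ran from -6.859 to 9.784, from which base 2 was taken, and array medians from -0.014 to 0.019. Features with 1 gene symbol in the platform annotation (23485) were averaged per gene, and 179 with several symbols and 6937 with none were left out. Arrays correlated at 0.6991 to 0.9746 over 861 pairs, and 0 pairs were identical.

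All 42 arrays entered 1 model with a mean per group, fitted by limma 3.58.1 (R 4.3.3) with empirical Bayes spread. Genes with values on at least 3 arrays of each group were tested, with p adjusted over all of them (Benjamini-Hochberg, 2-sided). On simulated data in the layout of CpG ODN 3 h against untreated, 30.3%, 92.5% and 100% of genes changed by 0.5, 1 and 2 were recovered, with 15 false among 164 calls. The members and gene lists were chosen with earlier results of these data known. Other genes were drawn from the called list members with the largest differences, up to 3 a pathway list and 2 a marker list. Cd79a, Ms4a1, H2-Ea, Rfx5, Ifng and Irf1 were added whatever the result. Some genes chosen in this way, Ms4a1 among them, are not reported here, so those named are a part of the choice. Nearest genes are the 5 with the highest correlation, and some of these are not reported here. Some genes on the lists were not analysed here. Alternatives changed centring, scaling, filters, weights, thresholds, the arrays fitted and blocks, and left out each array in turn. Scaling to equal SD and leaving out arrays with over 1000 missing values were chosen after seeing the data.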

Additional observations from a re-analysis of the deposited data

Results flagged for a closer look

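H2-DMa on CpG ODN 9 days replicate 4, at 3.66, stood far from the other 3 arrays of its group (3.02, 2.94 and 3.05). It was the single such sample in 97 groups of values examined. Chance gives such a sample in about 1 group in 20, so 1 flag is fewer than chance alone would give. The response to the 2 oligodeoxynucleotide mixtures at 3 h differed for 4 members by limma's test of CpG ODN against control ODN: H2-Aa (-0.70), H2-Eb1 (-1.05), H2-DMa (-0.89) and H2-DMb1 (-0.83). CpG times differed from each other for Ctss, at 5 days against 72 h (-0.70), and for H2-Aa, at 7 days against 14 days (-0.77), each called by limma.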

How the results depend on the processing

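No called difference of a member from untreated or from control ODN changed sign in any alternative run. Of 1858 member values under alternatives, 1738 kept their side of the threshold, 69 lost a call and 51 gained one, and 104 uncalled differences changed sign while staying uncalled. The fall of H2-Ob kept its call at 9 h, 5, 7 and 9 days in every alternative that tested it (adjusted p up to 0.0229, 0.0143, 0.0131 and 0.00661) and lost it in 1 of 18 at 72 h. The counts of members called moved as follows, and the cause was not tested except where fewer genes or arrays were fitted. Quantile normalization gave 2 at 3 h, 4 at 9 h, 2 at 24 h, 4 at 5 days, 2 at 7 days, 2 at 9 days and 0 for control ODN. Scaling to equal SD gave 3 at 9 h, 1 at 24 h, 4 at 5 days, 2 at 7 days, 2 at 9 days and 0 for control ODN. Median centring gave 2 at 72 h. Only genes measured on all arrays, a filter that drops H2-Ob, H2-Oa and H2-DMb1, left 0 at 9 h, 1 at 5 days, 0 at 7 days and 0 at 9 days. Fits of the 2 groups alone gave 1 at 24 h, 2 at 72 h, 0 for control ODN and 1 for CpG ODN against control ODN. Array weights gave 6 at 72 h, 5 for control ODN and 7 for CpG ODN against control ODN. An adjusted p below 0.01 left 1 at 5 days, 0 for control ODN and 1 for CpG ODN against control ODN. Without arrays with over 1000 missing values the counts were 1 at 5 days, 0 for control ODN and 2 for CpG ODN against control ODN. Leaving out each array in turn gave 0 to 4 at 72 h, 0 to 2 at 5 days, 0 to 7 for control ODN and 1 to 7 for CpG ODN against control ODN. Without 1 of the 3 CpG ODN 5 days arrays that measured it, H2-Ob had too few arrays to be tested.

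With a replicate block the control ODN count was 0 in place of 3, and the call of H2-DMa at 5 days was lost (adjusted p = 0.0916). Same-numbered arrays of different groups had a median r of 0.0261 between deviations (180 pairs, 63 over 0.1), so the numbers are not taken to pair the arrays. With stretches of the database numbering as a random block the control ODN count was 1, and as a fixed block, which could be fitted against untreated only at 3, 9 and 24 h and on genes measured on all arrays, the 9 h count was 0. H2-Ob is not among those genes, so the fixed block did not test its fall at any time. Over all genes, control ODN calls numbered 531, and 26 with the replicate block, 190 with the random block, 184 with quantile normalization, 163 with equal SD, 1015 with array weights and 0 in a fit of the 2 groups alone. The number of arrays limits every difference. Changes of 0.5 were mostly missed on simulated data in the layouts of CpG ODN 3 h and control ODN against untreated. The simulation for CpG ODN 3 h gave 164 calls, beside 1774 in the measured comparison, so recovery may differ where more genes change.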
